A study of Mus musculus with 24 samples.

Results

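Lens epithelia of LEGSKO mice were compared with lens epithelia of wild-type (WT) mice across all genes measured by RNA sequencing. The labels place 4 libraries in the LEGSKO epithelia group and 4 in the WT epithelia group, 8 of the 24 libraries of the series, and all 24415 gene rows of the deposited table entered the comparison. LEGSKO epithelia are of genotype LEGSKO on a C57BL/6 background with treatment None, and the submitters describe such lenses as mildly deficient in glutathione. WT epithelia share the background and the treatment label. The other 16 libraries are epithelia of LEGSKO mice given buthionine sulfoximine (LEGSKO+BSO) and cortical fiber cells of the same 3 conditions. The sources used here do not give age, sex, the number of animals or the Cre driver of the line, and they do not say whether each library of a group is a different animal. The p-values below speak only of the spread among these libraries, part of which may be technical.

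In LEGSKO mice, as the line is known, Gclc is deleted in the lens; it encodes the catalytic part of glutamate-cysteine ligase, which performs the rate-limiting step of glutathione synthesis. Glutathione is the main soluble thiol of the lens: it keeps crystallin thiols reduced and feeds glutathione peroxidases and S-transferases. The lens epithelium is a single layer of cells under the anterior capsule, in which cell division and much of the ion pumping of the lens take place. BSO inhibits the same ligase.

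Library totals were 20210161 to 25139117 counts in LEGSKO epithelia and 20584189 to 24198996 counts in WT epithelia. Levels are CPM, the usual count-per-million scale after TMM scaling of the libraries, with no correction for gene length, so they compare libraries for a gene and not genes with each other. As a check of the tissue label, Pax6, the transcription factor that specifies the eye, averaged 665 ± 34.1 CPM in LEGSKO and 592 ± 54.3 CPM in WT, Foxe3, a forkhead factor of the lens epithelium, averaged 241 ± 54.2 CPM in LEGSKO and 244 ± 50.05 CPM in WT, and Cdh1, the epithelial cadherin, averaged 488 ± 31.4 CPM in LEGSKO and 521 ± 73.6 CPM in WT (SD, n = 4 each). Mip, the main water channel of fiber membranes, averaged 1138 ± 476 CPM in LEGSKO and 2196 ± 102 CPM in WT. The libraries labelled epithelia thus held transcripts of both lens cell types in each group. The Mip mean was lower in LEGSKO, and whether the fiber part was equal in the 2 groups was not tested. All 10 lens fiber markers listed below were under 0 in log2 fold change, with 0 called by edgeR. They ranged from -0.95 to -0.03, with a median of -0.19.

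Gclc (Entrez 14629, chromosome 9: 77754535 to 77794489 of GRCm38) was looked at as the targeted gene. It had 70.5, 57.7, 59.99 and 44.6 CPM in LEGSKO libraries 1 to 4, against 95.9, 71.3, 80.4 and 66.6 CPM in WT libraries 1 to 4. The groups overlapped, since LEGSKO library 1 was above WT library 4, and the quasi-likelihood test of edgeR, adjusted by the Benjamini-Hochberg method, did not call the difference (log2 fold change -0.43 ± 0.16 SE, adjusted p = 0.224). A count for the whole gene can include reads from exons that the deletion leaves in place, so this level does not check the knockout. Gclm, the modifier subunit of the ligase, had 63.2, 38.6, 35.8 and 44.4 CPM in LEGSKO against 46.4, 47.1, 46.03 and 37.7 CPM in WT (log2 fold change 0.04 ± 0.18 SE, adjusted p = 0.942). Gss, glutathione synthetase, which performs the final step of the pathway, had 181, 133, 110.1 and 152 CPM in LEGSKO against 161, 181, 166 and 133 CPM in WT (log2 fold change -0.15 ± 0.18 SE, adjusted p = 0.744). Libraries of both groups interleaved for Gclm and Gss.

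Of 15089 genes that passed the filter on low counts, 127 (0.842%) were called at a Benjamini-Hochberg adjusted p below 0.05 in the quasi-likelihood test of edgeR. LEGSKO epithelia had 88 of them higher (0.583% of genes tested) and 39 lower (0.258%). Most of these differences were small: the median fold was 1.55 among genes called higher and 1.45 among genes called lower. Of the genes called higher, 20 were at least 2-fold up and 6 at least 4-fold up. Of the genes called lower, 6 were at least 2-fold down and 0 were 4-fold down. All 127 had CPM ranges that did not overlap between the 4 LEGSKO and the 4 WT libraries, as did 8.45% of all genes tested. The median log2 fold change over all genes tested was -0.01, and 48.7% of them were above 0. In all, 2132 genes (14.1%) had an unadjusted p below 0.05. These shares are the background for the list counts below. Protein-coding genes made up 122 of the calls, with 3 long non-coding RNAs and 2 pseudogenes. The pseudogene Gm6644 held the same count as Akr1b3 in every library, so 1 set of reads stands behind both rows. DESeq2 called 460 genes on the same counts (3.17% of 14502 with an adjusted p). Leaving out 1 library moved edgeR's count to between 40 and 183: it was 40 without WT library 2, and 53, 49 and 54 without LEGSKO library 2, 3 or 4.

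**Figure D1:**
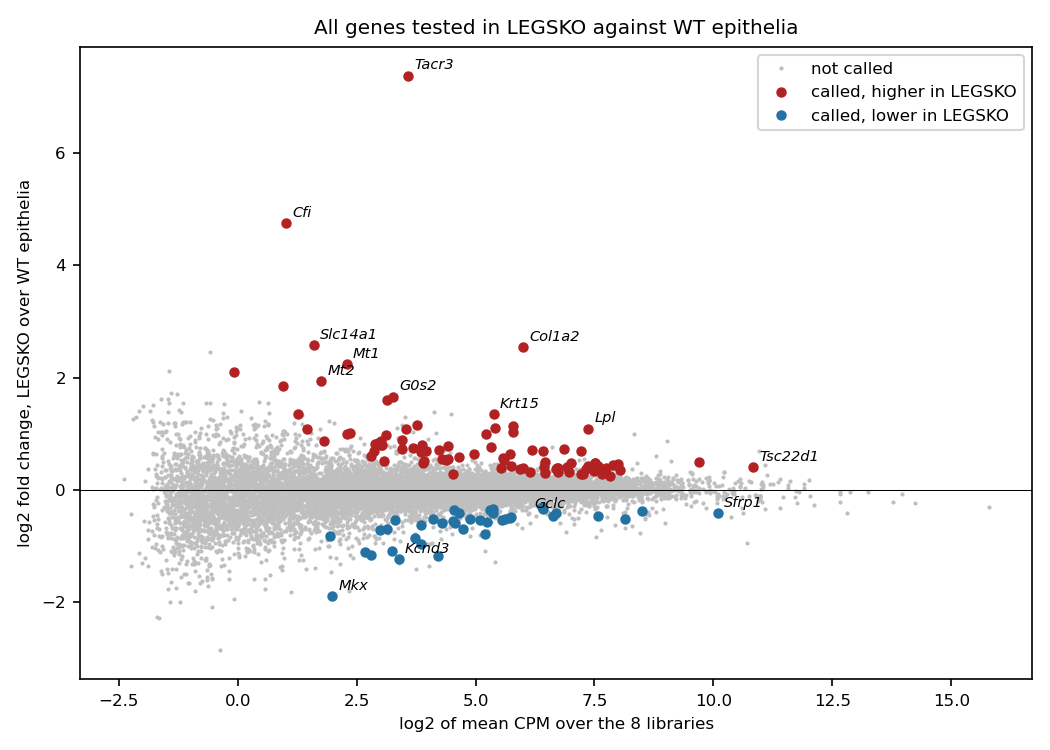
Each point is 1 of the 15089 genes tested, with the log2 of its mean CPM over the 8 libraries on the horizontal axis and the log2 fold change of LEGSKO over WT epithelia on the vertical axis. Genes called higher in LEGSKO (88) spread up to 7.38 for Tacr3, and genes called lower (39) reach -1.90 for Mkx.

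Tacr3, which encodes the receptor for neurokinin B, a tachykinin peptide, stood furthest apart. The gene (Entrez 21338, chromosome 3: 134829007 to 134934581) had 23.2, 29.6, 23.6 and 18.7 CPM in LEGSKO libraries 1 to 4, against 0.291, 0.148, 0 and 0.1303 CPM in WT libraries 1 to 4. The raw counts were 505, 604, 497 and 467 in LEGSKO and 6, 3, 0 and 3 in WT, so LEGSKO libraries held many reads and WT libraries a few at most. The difference was called (log2 fold change 7.38 ± 0.32 SE, adjusted p = 5.40e-09); with so few WT counts its size is uncertain. Cfi, the serine protease that inactivates complement components, had 2.85, 3.72, 4.84 and 4.08 CPM in LEGSKO against 0.387, 0.197, 0 and 0 CPM in WT and was also higher (log2 fold change 4.75 ± 0.56 SE, adjusted p = 0.00154). Its raw counts were 62, 76, 102 and 102 in LEGSKO and 8, 4, 0 and 0 in WT, and its fitted fold of 26.9-fold became 58.9-fold without WT library 1. The groups did not overlap for either gene, and both kept their calls without any 1 library.

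Egf, the epidermal growth factor precursor and a neighbour of Cfi on chromosome 3, averaged 6.51 ± 1.17 CPM in LEGSKO and 3.26 ± 0.7501 CPM in WT (SD, n = 4 each; log2 fold change 1.00 ± 0.21 SE, adjusted p = 0.0415), and was named after its values were seen. Its call was lost when any 1 of the 8 libraries was left out (adjusted p up to 0.151). Within 10 Mb on either side of Tacr3, a window centred on the gene after its value was seen, 73 genes were tested, Tacr3 included. Besides Tacr3 itself, 3 were called: Cfi, Egf and Tspan5. With Tacr3, for which the window was chosen, the called share was 5.48%, against 0.842% of all genes tested. Tspan5 lost its call without LEGSKO 2, 3 or 4 or WT 1, 2, 3 or 4 (adjusted p up to 0.118).

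The 250 bases before the RefSeq transcript start of Tacr3 (RefSeq, GRCm38.p6, chr3:134828757-134829006, plus strand) are shown because the gene had the highest fold change. Capitals mark a match, on the minus strand, to the antioxidant response element core TGACNNNGC, where NRF2 is known to bind.
Tacr3: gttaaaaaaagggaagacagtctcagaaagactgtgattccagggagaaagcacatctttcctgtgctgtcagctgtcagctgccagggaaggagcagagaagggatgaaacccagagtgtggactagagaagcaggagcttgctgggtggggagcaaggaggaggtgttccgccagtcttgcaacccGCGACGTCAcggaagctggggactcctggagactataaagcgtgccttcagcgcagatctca
Searched on both strands, this core stood in 12.1% of the 11759 promoter windows of genes tested, in 6.25% of 64 windows of genes called higher and in 14.7% of 34 windows of genes called lower. A match of letters describes the window and shows no binding.

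**Figure D2:**
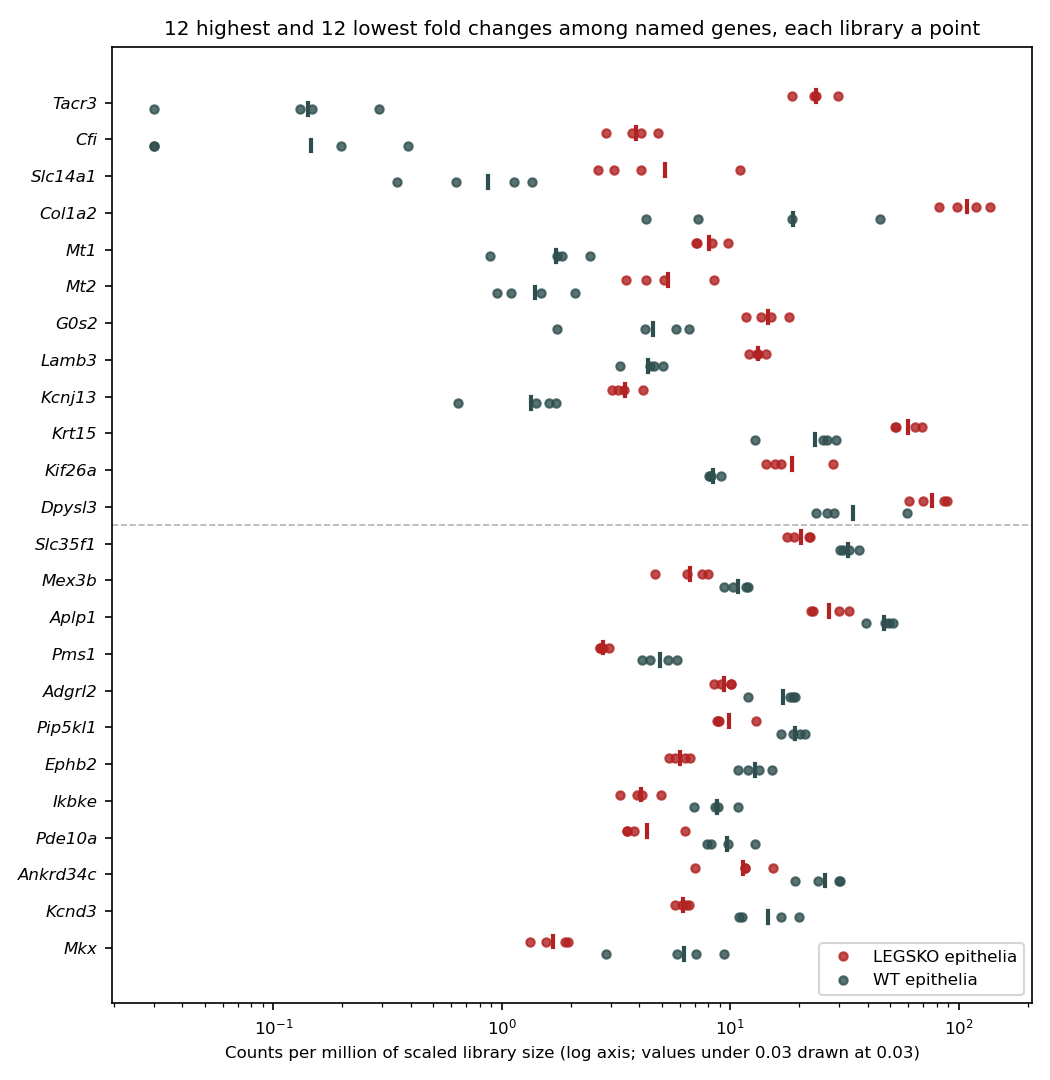
CPM (log axis, values under 0.03 drawn at 0.03) of the 12 genes with the highest and the 12 with the lowest fold change under the naming rule, 1 point per library and a vertical bar at each group's mean, LEGSKO epithelia in red and WT epithelia in dark grey. The naming rule admitted only genes whose 4 LEGSKO and 4 WT libraries do not overlap, so the separation in all 24 genes follows from that choice. The gap is widest for Tacr3.

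Mt1 and Mt2, which encode metallothioneins, small cysteine-rich proteins that bind zinc and copper, were called higher, while Mt3 and Mt4 did not pass the filter on low counts. Mt1 had 8.33, 7.103, 9.78 and 7.12 CPM in LEGSKO libraries 1 to 4, against 2.42, 1.83, 0.887 and 1.74 CPM in WT libraries 1 to 4, a 4.73-fold difference (log2 fold change 2.24 ± 0.28 SE, adjusted p = 0.00203). Mt2 had 3.498, 5.14, 8.45 and 4.28 CPM in LEGSKO libraries 1 to 4, against 2.08, 1.48, 1.098 and 0.955 CPM in WT libraries 1 to 4, a 3.82-fold difference (log2 fold change 1.93 ± 0.42 SE, adjusted p = 0.0420). Every LEGSKO library was above every WT library for both genes, and LEGSKO library 3 was the highest for both. Slc39a10, a zinc importer of the plasma membrane, fell: it had 45.2, 44.6, 43.7 and 40.6 CPM in LEGSKO against 59.2, 64.1, 70.3 and 52.3 CPM in WT (log2 fold change -0.50 ± 0.08 SE, adjusted p = 0.00918). Of the 23 genes listed for metallothioneins, zinc and copper handling, 18 were tested, with 2 called higher and 1 lower and a median log2 fold change of 0.02 (DESeq2 called 3, and 4 were at an unadjusted p below 0.05). Mtf1, the zinc-sensing factor that switches metallothionein genes on, averaged 30.1 ± 1.98 CPM in LEGSKO and 29.9 ± 2.77 CPM in WT (log2 fold change 0.01 ± 0.08 SE, adjusted p = 0.965). The zinc exporter Slc30a1, another of its known targets, averaged 37.6 ± 3.66 CPM in LEGSKO and 35.96 ± 1.97 CPM in WT (log2 fold change 0.06 ± 0.08 SE, adjusted p = 0.776). Mt1 and Slc39a10 kept their calls without any 1 library, and Mt2 lost its call without LEGSKO 2, 3 or 4 or WT 2, 3 or 4 (adjusted p up to 0.126). How reads shared by the similar genes Mt1 and Mt2 were counted is not given in the sources used here.

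Promoter windows of Mt1 and Mt2 are shown because metallothionein promoters are the textbook place of metal response elements. Each holds the 250 bases before a RefSeq transcript start on GRCm38.p6 (Mt1 at chr8:94178839-94179088, plus strand, and Mt2 at chr8:94172368-94172617, plus strand). Capitals mark the metal response element core, searched as TGCACNC or TGCGCNC on both strands.
Mt1: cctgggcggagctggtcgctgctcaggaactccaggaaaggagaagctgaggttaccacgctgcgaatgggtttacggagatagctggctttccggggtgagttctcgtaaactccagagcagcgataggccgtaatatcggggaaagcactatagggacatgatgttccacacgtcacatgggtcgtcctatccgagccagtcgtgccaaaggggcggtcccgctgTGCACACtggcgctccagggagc
Mt2: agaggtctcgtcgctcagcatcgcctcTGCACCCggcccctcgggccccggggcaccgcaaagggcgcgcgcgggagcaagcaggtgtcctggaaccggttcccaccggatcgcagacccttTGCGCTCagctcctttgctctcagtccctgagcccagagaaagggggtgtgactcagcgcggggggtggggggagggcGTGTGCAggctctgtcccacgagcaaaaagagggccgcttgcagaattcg
The Mt1 window held 1 match, from 23 to 17 bases before the start, and the Mt2 window held 3. The Mt2 window also held, from 79 bases before the start, a match to the antioxidant response element core that overlaps an AP-1 site (TGACTCA or TGAGTCA). Windows of Slc39a10 and of Akr1b10, a called gene described below, were searched too and are not shown. Those of Slc39a10 held 0 metal response element cores and 0 antioxidant response element cores. That of Akr1b10 held 2 metal response element cores and 0 antioxidant response element cores. Metal response element cores stood in 29.6% of the windows of genes tested, in 25.0% of those of genes called higher and in 38.2% of those of genes called lower, so that such matches are common. The first base of the annotated Mt1 gene lies inside its window, and the window belongs to a start further downstream.

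Glutathione genes gave no calls in LEGSKO epithelia. Of 31 tested members of the list for glutathione synthesis, export and recycling (35 listed), edgeR called 0, with 6 at an unadjusted p below 0.05 and 1 called by DESeq2. The median log2 fold change was 0.02. Slc7a11, the cystine importer that supplies cysteine, averaged 1017 ± 80.9 CPM in LEGSKO and 915 ± 146 CPM in WT (log2 fold change 0.15 ± 0.10 SE, adjusted p = 0.528), and its partner chain Slc3a2 averaged 934 ± 73.1 CPM in LEGSKO and 951 ± 97.1 CPM in WT (log2 fold change -0.03 ± 0.09 SE, adjusted p = 0.926). Of 22 tested glutathione S-transferases (25 listed), edgeR called 0, with 5 at an unadjusted p below 0.05 and 1 called by DESeq2, and the median was 0.14. Gstm1, a cytosolic transferase of the mu class, averaged 1531 ± 41.3 CPM in LEGSKO and 1383 ± 114 CPM in WT (log2 fold change 0.15 ± 0.08 SE, adjusted p = 0.439).

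Peroxidase and iron genes lay mostly above 0 without a call. Among 28 tested members of the peroxidase and thioredoxin list (29 listed), edgeR called 0, with 12 at an unadjusted p below 0.05 and 5 called by DESeq2, 21 members were above 0 and the median log2 fold change was 0.09. Gpx4, the peroxidase that reduces lipid hydroperoxides, had 344, 379, 402 and 434 CPM in LEGSKO against 317, 273, 268 and 269.6 CPM in WT, without overlap, and missed the threshold (log2 fold change 0.47 ± 0.12 SE, adjusted p = 0.0952). Prdx6, a peroxiredoxin, had 272, 290.4, 310.3 and 331 CPM in LEGSKO against 256, 262, 272 and 253 CPM in WT (log2 fold change 0.21 ± 0.07 SE, adjusted p = 0.197). Of 17 tested genes for iron handling (20 listed), edgeR called 0, with 11 at an unadjusted p below 0.05 and 6 called by DESeq2, 14 were above 0 and the median was 0.20. Fth1, the ferritin heavy chain that stores iron, had 666, 573, 637 and 708 CPM in LEGSKO against 501, 468, 432 and 419 CPM in WT, again without overlap (log2 fold change 0.51 ± 0.14 SE, adjusted p = 0.111), and Ftl1, the light chain, averaged 425 ± 31.3 CPM in LEGSKO and 369 ± 46.7 CPM in WT (log2 fold change 0.20 ± 0.12 SE, adjusted p = 0.465).

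Osgin1 was the 1 member called among 30 tested NRF2 targets (32 listed), of which 24 were above 0 with a median log2 fold change of 0.14. DESeq2 called 3 of them, and 10 were at an unadjusted p below 0.05. NRF2 is the transcription factor that answers electrophiles and oxidants. Osgin1, an oxidative stress-induced growth inhibitor, had 7.04, 9.504, 10.2 and 11.05 CPM in LEGSKO libraries 1 to 4, against 4.21, 5.08, 6.97 and 5.12 CPM in WT libraries 1 to 4 (log2 fold change 0.82 ± 0.17 SE, adjusted p = 0.0372). Every LEGSKO library was above every WT library, by a narrow margin between LEGSKO library 1 and WT library 3, and the call was lost without LEGSKO 2, 3 or 4 or WT 1, 2 or 4 (adjusted p up to 0.135). The Osgin1 promoter window (RefSeq, GRCm38.p6, chr8:119436897-119437146, plus strand) is shown as that of the called NRF2 target, with its AP-1 site in capitals, 97 to 91 bases before the start.
Osgin1: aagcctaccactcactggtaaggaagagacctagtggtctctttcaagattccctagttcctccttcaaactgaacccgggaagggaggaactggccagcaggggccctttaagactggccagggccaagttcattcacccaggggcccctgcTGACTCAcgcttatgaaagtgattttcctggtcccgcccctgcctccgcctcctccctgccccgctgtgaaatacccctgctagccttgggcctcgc
The antioxidant response element core as searched is not in this window. The window lies inside the annotated Osgin1 gene (chromosome 8: 119425882 to 119446257), before a start further downstream. It thus does not describe the bases before the first annotated base of the gene. AP-1 sites stood in 3.12% of the windows of genes tested, in 6.25% of those of genes called higher and in 2.94% of those of genes called lower.

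Aldose reductase and a related enzyme rose among the genes for aldehyde and carbonyl detoxification. Akr1b3, the mouse aldose reductase, which turns glucose into sorbitol and reduces lipid aldehydes, had 193, 217, 211 and 222 CPM in LEGSKO libraries 1 to 4, against 165, 140.3, 152 and 151 CPM in WT libraries 1 to 4, a 1.38-fold difference (log2 fold change 0.47 ± 0.08 SE, adjusted p = 0.00983). Akr1b10, an aldo-keto reductase encoded near it, had 3.13, 4.26, 3.89 and 3.68 CPM in LEGSKO against 2.37, 1.58, 1.73 and 1.39 CPM in WT (log2 fold change 1.08 ± 0.22 SE, adjusted p = 0.0343). The groups did not overlap for either gene. Of 32 tested members (39 listed), 2 were called higher and 0 lower, 25 were above 0, and the median log2 fold change was 0.11. DESeq2 called 6 of them, and 9 were at an unadjusted p below 0.05. The lens and cornea aldehyde dehydrogenase Aldh3a1 averaged 2452 ± 392 CPM in LEGSKO and 1525 ± 583 CPM in WT, without a call (log2 fold change 0.68 ± 0.23 SE, adjusted p = 0.181). Leaving out WT 2 removed the call of Akr1b3 (adjusted p up to 0.0514), and leaving out LEGSKO 2, 3 or 4 or WT 2, 3 or 4 removed that of Akr1b10 (adjusted p up to 0.112). Akr1b3 was also the 1 called gene of 34 tested for sugar, polyol and glycolysis (median 0.07). There DESeq2 called 1, and 10 were at an unadjusted p below 0.05.

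**Figure D3:**
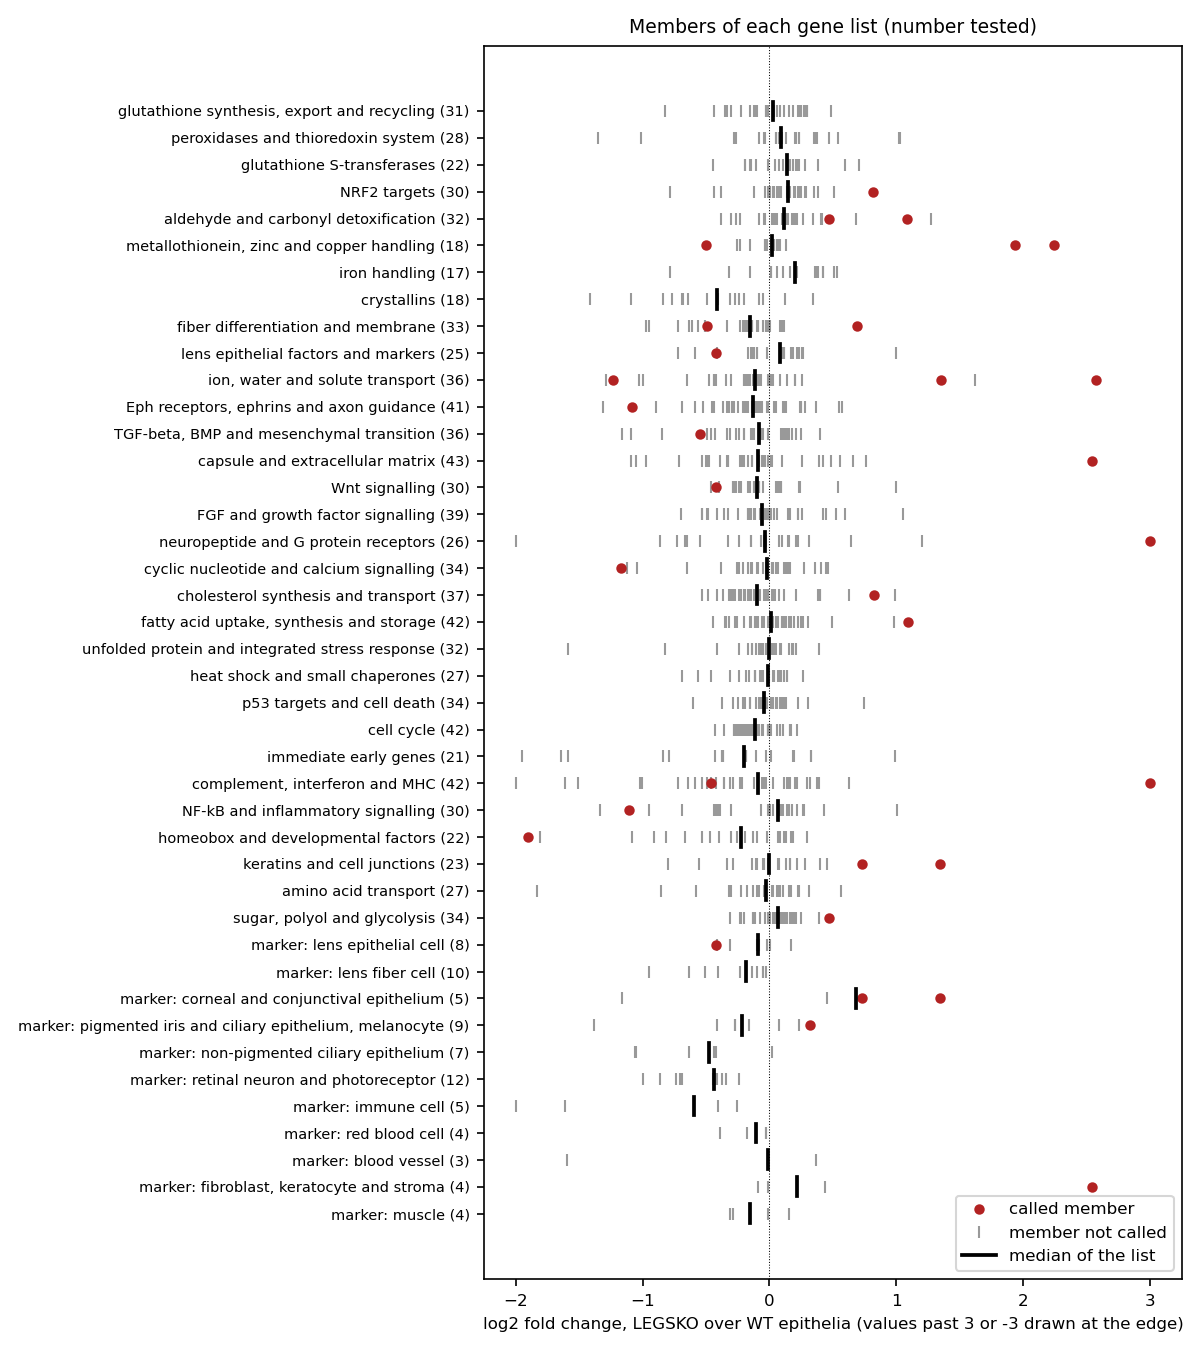
Log2 fold change of LEGSKO over WT epithelia (horizontal axis, values past 3 drawn at the edge) for each tested member of 42 gene lists (rows, number tested in brackets). Red points are called members, grey ticks are members not called and black bars are list medians, which lie between -0.59 for immune cell markers and 0.68 for corneal and conjunctival markers.

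Krt15, Krt19 and the laminin gene Lamb3 were higher in LEGSKO epithelia. Krt15, a type I keratin of basal epithelial cells, had 53.2, 64.6, 52.6 and 69.04 CPM in LEGSKO libraries 1 to 4, against 12.8, 25.5, 26.6 and 29.1 CPM in WT libraries 1 to 4, a 2.54-fold difference (log2 fold change 1.35 ± 0.18 SE, adjusted p = 0.00364). Krt19, another type I keratin, had 144, 141, 158 and 133 CPM in LEGSKO against 90.3, 82.5, 66.7 and 109 CPM in WT (log2 fold change 0.73 ± 0.12 SE, adjusted p = 0.0101). Lamb3, the beta chain of the laminin that anchors epithelia to their basement membrane, had 13.2, 12.1, 14.3 and 13.1 CPM in LEGSKO libraries 1 to 4, against 3.29, 4.64, 4.43 and 5.08 CPM in WT libraries 1 to 4, a 3.02-fold difference (log2 fold change 1.59 ± 0.14 SE, adjusted p = 8.72e-05). The groups did not overlap for any of these genes, and the LEGSKO libraries lay close together for Lamb3. Krt15 and Lamb3 kept their calls without any 1 library, while Krt19 lost its call without WT 2 (adjusted p up to 0.0522). Of 41 genes listed for keratins and cell junctions, 23 were tested, with 2 called higher, 0 lower, 11 above 0 and 12 below 0, and a median log2 fold change of -0.00 (DESeq2 called 4, and 7 were at an unadjusted p below 0.05).

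Krt15 and Krt19 also belong to a list of markers of corneal and conjunctival epithelium, which lies near the lens in the eye. Of the 12 markers, 5 were tested, with 2 called higher and a median log2 fold change of 0.68. Their summed level was 2257 to 3192 CPM in LEGSKO and 845 to 2094 CPM in WT, most of it from Aldh3a1. The corneal keratin Krt12 had 6 counts in the 4 LEGSKO libraries together and 5 in the 4 WT libraries. The basal keratin Krt5 had 11 counts in LEGSKO and 5 in WT, and its partner Krt14 had 8 in LEGSKO and 23 in WT. These defining markers were near 0 in both groups. In bulk libraries, more cells of a type and more RNA per cell cannot be told apart.

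Col1a2, the alpha 2 chain of type I collagen, was higher in LEGSKO epithelia. It had 81.98, 119, 137 and 97.8 CPM in LEGSKO libraries 1 to 4, against 45.2, 4.29, 18.5 and 7.25 CPM in WT libraries 1 to 4, a 5.81-fold difference (log2 fold change 2.54 ± 0.48 SE, adjusted p = 0.0237). The groups did not overlap, but the WT libraries differed widely among themselves, and the fold was 10.7 without WT library 1. The call was lost without LEGSKO 2, 3 or 4 or WT 2, 3 or 4 (adjusted p up to 0.0783). Col1a1, the partner chain of the same collagen, averaged 2.35 ± 1.68 CPM in LEGSKO and 2.49 ± 0.874 CPM in WT (log2 fold change -0.09 ± 0.41 SE, adjusted p = 0.942). Of 43 tested genes of the capsule and extracellular matrix (49 listed), 1 was called, 32 were below 0 and the median log2 fold change was -0.09. DESeq2 called 5 of them, and 8 were at an unadjusted p below 0.05.

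Stromal markers were looked at beside Col1a2. Of 9 markers of fibroblasts, keratocytes and stroma, 4 were tested and Col1a2 was the 1 called (median log2 fold change 0.22). Their summed level was 379 to 461 CPM in LEGSKO and 290 to 368 CPM in WT. Most of that sum was Pdgfrb, which averaged 316 CPM in LEGSKO and 318 CPM in WT. The difference in the sum came mostly from Col1a2 itself, which averaged 109 CPM in LEGSKO and 18.8 CPM in WT. Kera, a keratocyte proteoglycan, had 0 counts in all 8 libraries, and Lum had 1 count in LEGSKO and 0 in WT. Dcn, decorin, had 36, 5, 118 and 8 counts in LEGSKO libraries 1 to 4 and 7, 4, 0 and 0 in WT libraries 1 to 4. Col3a1 and Postn were also highest in LEGSKO library 3, at 30 and 27 counts. The part of stromal cells in the Col1a2 result was not tested.

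Tgfb1, the growth factor known for driving mesenchymal transition of lens epithelial cells, fell. It had 39.3, 35.1, 41.5 and 37.6 CPM in LEGSKO libraries 1 to 4, against 48.6, 58.4, 51.3 and 66.3 CPM in WT libraries 1 to 4, a 1.46-fold difference (log2 fold change -0.55 ± 0.09 SE, adjusted p = 0.00944), and every LEGSKO library was below every WT library. It was the 1 called gene of 36 tested for TGF-beta, BMP and mesenchymal transition (40 listed, median log2 fold change -0.08). There DESeq2 called 2, and 5 were at an unadjusted p below 0.05. Sfrp1, a secreted Wnt antagonist, also fell, with 1003, 979.8, 949 and 805 CPM in LEGSKO against 1324, 1271, 1210.1 and 1196 CPM in WT (log2 fold change -0.42 ± 0.08 SE, adjusted p = 0.0220). It was the 1 called gene of 30 tested for Wnt signalling (42 listed, median -0.10), of 25 tested lens epithelial factors and markers (median 0.08) and of 8 lens epithelial cell markers (median -0.09). In these 3 lists DESeq2 called 4, 3 and 1, and 8, 7 and 3 were at an unadjusted p below 0.05. Tgfb1 kept its call without any 1 library, and Sfrp1 lost its call without LEGSKO 2, 3 or 4 or WT 2 (adjusted p up to 0.0804).

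Channels and transporters moved in both directions. Slc14a1, a urea transporter, had 3.08, 4.07, 11.02 and 2.64 CPM in LEGSKO libraries 1 to 4, against 0.6297, 1.13, 1.35 and 0.347 CPM in WT libraries 1 to 4, a 5.96-fold difference (log2 fold change 2.57 ± 0.47 SE, adjusted p = 0.0183). Library 3 stood above the other LEGSKO libraries, and without it the fold was 3.74. Kcnj13, an inward rectifier potassium channel known from retinal pigment epithelium, had 3.22, 4.16, 3.42 and 3.04 CPM in LEGSKO against 1.405, 0.641, 1.73 and 1.61 CPM in WT (log2 fold change 1.35 ± 0.28 SE, adjusted p = 0.0361). Kcnd3, a voltage-gated potassium channel, had 5.75, 6.42, 6.13 and 6.603 CPM in LEGSKO against 19.96, 16.6, 10.9 and 11.3 CPM in WT and was 2.35-fold lower (log2 fold change -1.24 ± 0.19 SE, adjusted p = 0.00644). Its LEGSKO values lay close together, below all WT values. Kcna5, a Shaker-type potassium channel, had 49.6, 52.1, 52.2 and 47.4 CPM in LEGSKO against 28.5, 27.9, 30.4 and 31.4 CPM in WT and was 1.702-fold higher (log2 fold change 0.77 ± 0.10 SE, adjusted p = 0.00294). Of 36 tested genes for ion, water and solute transport (40 listed, without Kcna5), 2 were called higher and 1 lower, with a median log2 fold change of -0.12. DESeq2 called 5 of them, and 13 were at an unadjusted p below 0.05. The calls of Kcnd3 and Kcna5 held whichever library was left out, Slc14a1 lost its call without WT 2 or 4 (adjusted p up to 0.0578), and Kcnj13 lost it without LEGSKO 2, 3 or 4 or WT 2 or 4 (adjusted p up to 0.118).

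Lpl, G0s2, Abcg1 and Medag were called higher. G0s2 and Medag belong to no lipid list here. Lpl, lipoprotein lipase, which releases fatty acids from lipoproteins, had 175, 229, 272 and 224 CPM in LEGSKO libraries 1 to 4, against 117, 91.01, 131 and 83.6 CPM in WT libraries 1 to 4, a 2.13-fold difference (log2 fold change 1.09 ± 0.16 SE, adjusted p = 0.00530). G0s2, an inhibitor of adipose triglyceride lipase, had 11.7, 15.04, 18.05 and 13.6 CPM in LEGSKO libraries 1 to 4, against 1.74, 4.24, 5.78 and 6.600 CPM in WT libraries 1 to 4, a 3.16-fold difference (log2 fold change 1.66 ± 0.27 SE, adjusted p = 0.00918). Neither gene had overlapping groups, and both kept their calls without any 1 library. Abcg1, a sterol exporter, had 8.88, 9.896, 9.45 and 11.1 CPM in LEGSKO against 6.97, 4.54, 5.83 and 4.91 CPM in WT (log2 fold change 0.82 ± 0.18 SE, adjusted p = 0.0420), and Medag, a gene named for mesenteric adipogenesis, had 20.1, 22.3, 25.5 and 25.3 CPM in LEGSKO against 14.97, 13.9, 14.2 and 14.1 CPM in WT (log2 fold change 0.70 ± 0.08 SE, adjusted p = 0.00154). Medag kept its call without any 1 library and Abcg1 lost it without LEGSKO 2, 3 or 4 or WT 2, 3 or 4 (adjusted p up to 0.142). Lpl was the 1 called gene of 42 tested for fatty acid uptake, synthesis and storage (46 listed, median log2 fold change 0.01). There DESeq2 called 1, and 5 were at an unadjusted p below 0.05. Abcg1 was the 1 called gene of 37 tested for cholesterol synthesis and transport, where DESeq2 called 7, 17 were at an unadjusted p below 0.05, 25 were below 0 and the median was -0.10.

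Cytoskeletal and signalling genes completed the high end. Kif26a, an unconventional kinesin, had 16.7, 15.7, 28.2 and 14.3 CPM in LEGSKO against 8.23, 8.14, 8.07 and 9.12 CPM in WT (log2 fold change 1.15 ± 0.21 SE, adjusted p = 0.0183). Dpysl3, a regulator of the growth cone cytoskeleton, had 60.8, 85.7, 88.4 and 69.5 CPM in LEGSKO against 59.2, 28.4, 23.7 and 26.6 CPM in WT (log2 fold change 1.14 ± 0.25 SE, adjusted p = 0.0467), and WT library 1 lay just under LEGSKO library 1, so that its groups were barely separate. Rhoh, a small GTPase known from blood cells, had 14.5, 13.4, 17.7 and 17.3 CPM in LEGSKO against 5.47, 7.55, 8.74 and 7.73 CPM in WT (log2 fold change 1.09 ± 0.14 SE, adjusted p = 0.00246), without overlap. Rhoh kept its call without any 1 library, Kif26a lost it without WT 2 or 3 (adjusted p up to 0.0753), and Dpysl3 without LEGSKO 2, 3 or 4 or WT 2, 3 or 4 (adjusted p up to 0.151).

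Mkx, a homeobox factor known from tendon, had the lowest fold change. It had 1.57, 1.32, 1.95 and 1.88 CPM in LEGSKO libraries 1 to 4, against 2.86, 5.82, 7.05 and 9.38 CPM in WT libraries 1 to 4, a 3.73-fold difference (log2 fold change -1.90 ± 0.30 SE, adjusted p = 0.00911). All LEGSKO values were below all WT values, with a wide spread in WT. It was the 1 called gene of 22 tested homeobox and developmental factors (43 listed, median log2 fold change -0.22). There DESeq2 called 1, and 4 were at an unadjusted p below 0.05. Ephb2, a receptor tyrosine kinase for ephrins, had 5.71, 6.66, 5.41 and 6.36 CPM in LEGSKO libraries 1 to 4, against 15.2, 11.9, 10.9 and 13.3 CPM in WT libraries 1 to 4, a 2.12-fold difference (log2 fold change -1.08 ± 0.15 SE, adjusted p = 0.00364), without overlap. It was the 1 called gene of 41 tested for Eph receptors, ephrins and axon guidance (43 listed), which had 29 members below 0 and a median of -0.13, with 4 called by DESeq2 and 11 at an unadjusted p below 0.05. The calls of Mkx and Ephb2 held in every fit that left out 1 library.

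Signalling genes were the next at the low end. Pde10a, a phosphodiesterase of cyclic nucleotides, had 6.35, 3.53, 3.51 and 3.802 CPM in LEGSKO against 8.23, 9.82, 12.8 and 7.903 CPM in WT (log2 fold change -1.17 ± 0.22 SE, adjusted p = 0.0240) and was the 1 called of 34 tested genes for cyclic nucleotide and calcium signalling (38 listed, median log2 fold change -0.02; DESeq2 called 4, and 8 were at an unadjusted p below 0.05). Ikbke, a kinase of innate immune signalling, had 3.91, 4.12, 3.28 and 4.96 CPM in LEGSKO against 6.93, 10.8, 8.57 and 8.86 CPM in WT (log2 fold change -1.11 ± 0.20 SE, adjusted p = 0.0141) and was the 1 called of 30 tested for NF-kB and inflammatory signalling (41 listed, median 0.07; DESeq2 called 3, and 8 were at an unadjusted p below 0.05). Adgrl2, a latrophilin-type adhesion receptor, had 9.11, 10.04, 10.02 and 8.48 CPM in LEGSKO against 18.3, 18.9, 19.2 and 11.9 CPM in WT (log2 fold change -0.86 ± 0.16 SE, adjusted p = 0.0168). None of these had overlapping groups. Pip5kl1, which is related to phosphoinositide kinases, had 12.98, 8.72, 8.83 and 8.92 CPM in LEGSKO against 18.9, 16.7, 20.2 and 21.2 CPM in WT (log2 fold change -0.96 ± 0.16 SE, adjusted p = 0.0114), with LEGSKO library 1 above the other LEGSKO libraries. The call was lost without LEGSKO 2, 3 or 4 or WT 2 or 3 for Pde10a (adjusted p up to 0.0969), without LEGSKO 2 or 3 or WT 2 for Ikbke (adjusted p up to 0.0664), without LEGSKO 3 or 4 or WT 2 for Adgrl2 (adjusted p up to 0.0719) and without LEGSKO 2 or 3 for Pip5kl1 (adjusted p up to 0.0546).

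Membrane and nuclear genes made up the rest of the low end. Aplp1, a relative of the amyloid precursor protein, had 22.9, 29.9, 32.9 and 22.5 CPM in LEGSKO against 49.4, 47.6, 39.3 and 51.5 CPM in WT (log2 fold change -0.80 ± 0.12 SE, adjusted p = 0.00644), and Ankrd34c, an ankyrin repeat protein, had 11.6, 11.6, 6.98 and 15.3 CPM in LEGSKO against 30.2, 29.99, 24.3 and 19.2 CPM in WT (log2 fold change -1.18 ± 0.20 SE, adjusted p = 0.0101). Neither had overlapping groups. Slc35f1, a solute carrier, averaged 20.3 ± 2.24 CPM in LEGSKO and 32.8 ± 2.88 CPM in WT (log2 fold change -0.69 ± 0.11 SE, adjusted p = 0.00983), and Dennd5b, a DENN domain protein, averaged 30.4 ± 2.79 CPM in LEGSKO and 45.4 ± 1.82 CPM in WT (log2 fold change -0.58 ± 0.08 SE, adjusted p = 0.00364; SD, n = 4 each). Pms1, a MutL-type mismatch repair protein, averaged 2.77 ± 0.121 CPM in LEGSKO and 4.93 ± 0.796 CPM in WT (log2 fold change -0.83 ± 0.17 SE, adjusted p = 0.0361), and Mex3b, an RNA-binding protein, averaged 6.65 ± 1.45 CPM in LEGSKO and 10.8 ± 1.23 CPM in WT (log2 fold change -0.70 ± 0.15 SE, adjusted p = 0.0415). Aplp1, Slc35f1 and Dennd5b kept their calls without any 1 library. The call was lost without WT 2 for Ankrd34c (adjusted p up to 0.0514), without LEGSKO 1, 2, 3 or 4 or WT 2, 3 or 4 for Pms1 (adjusted p up to 0.110) and without LEGSKO 2, 3 or 4 or WT 1, 2 or 3 for Mex3b (adjusted p up to 0.124).

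Complement gave 1 gene in each direction among 42 tested members of the list for complement, interferon and MHC (44 listed, median log2 fold change -0.09), with 4 called by DESeq2 and 11 at an unadjusted p below 0.05. Cfi, described above, was called higher. Serping1, the inhibitor of the first complement component, was lower, with 68.8, 90.6, 79.6 and 92.5 CPM in LEGSKO against 121, 112, 101 and 123 CPM in WT (log2 fold change -0.46 ± 0.10 SE, adjusted p = 0.0363), and its call was lost without LEGSKO 1, 2 or 3 or WT 1, 2 or 4 (adjusted p up to 0.104) and when library totals alone set the scaling. Immune cell markers were near 0 in both groups: the 5 tested of 10 summed to 1.76 to 3.67 CPM in LEGSKO and 1.73 to 8.45 CPM in WT. Of these edgeR and DESeq2 called 0, with 1 at an unadjusted p below 0.05.

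The crystallins, which pack the lens as its structural proteins, took 8.45% to 13.8% of counts in LEGSKO epithelia and 10.9% to 14.7% in WT epithelia. The mean shares of 10.6% ± 2.53 in LEGSKO and 12.5% ± 1.62 in WT (SD, n = 4 each) did not differ beyond the spread (exact permutation test, two-sided, p = 0.229). Of 18 tested crystallin genes (19 listed), edgeR and DESeq2 called 0, with 3 at an unadjusted p below 0.05, 16 were below 0 and the median log2 fold change was -0.41. Cryaa, the alpha A crystallin, averaged 50561 ± 13932 CPM in LEGSKO and 62639.9 ± 6771 CPM in WT (log2 fold change -0.31 ± 0.21 SE, adjusted p = 0.543), and Crybb2, a beta crystallin, averaged 17644 ± 5297 CPM in LEGSKO and 20865 ± 1953 CPM in WT (log2 fold change -0.24 ± 0.21 SE, adjusted p = 0.654). All 10 lens fiber markers were below 0 as well (median -0.19), with 0 called by edgeR, 2 at an unadjusted p below 0.05 and 1 called by DESeq2. Retinal neuron and photoreceptor markers lay in the same direction: 12 of 12 were below 0 (median -0.43), with 0 called by edgeR or DESeq2 and 0 at an unadjusted p below 0.05. Their summed level was 26.7 to 321 CPM in LEGSKO and 80.1 to 423 CPM in WT, and their part in the crystallin values was not tested.

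Fiber differentiation and membrane genes gave 2 calls among 33 tested. Spock1, a matrix proteoglycan, had 86.1, 116, 126 and 92.4 CPM in LEGSKO against 74.7, 53.2, 72.7 and 60.6 CPM in WT and was higher (log2 fold change 0.69 ± 0.13 SE, adjusted p = 0.0177). Caprin2, an RNA-binding protein known to act in lens development, had 53.99, 39.4, 43.5 and 39.9 CPM in LEGSKO against 63.9, 64.03, 65.7 and 55.7 CPM in WT and was lower (log2 fold change -0.50 ± 0.11 SE, adjusted p = 0.0420). The groups did not overlap in either gene. Of the 33 members, 26 were below 0 and the median log2 fold change was -0.15. DESeq2 called 5 of them, and 11 were at an unadjusted p below 0.05. Spock1 lost its call without LEGSKO 2 or 3 or WT 2 or 4 (adjusted p up to 0.0735), and Caprin2 without LEGSKO 2, 3 or 4 or WT 1, 2 or 3 (adjusted p up to 0.137).

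Stress lists held no edgeR calls. Of 32 tested genes for the unfolded protein and integrated stress response, edgeR called 0, with 6 at an unadjusted p below 0.05 and 3 called by DESeq2 (median log2 fold change -0.00). Phgdh, the entry enzyme of serine synthesis, averaged 987 ± 62.6 CPM in LEGSKO and 855 ± 32.1 CPM in WT (log2 fold change 0.21 ± 0.07 SE, adjusted p = 0.163). Of 27 heat shock and small chaperone genes, edgeR called 0, with 3 at an unadjusted p below 0.05 and 1 called by DESeq2 (median -0.01). Hspa8, a constitutive chaperone, averaged 1137 ± 117 CPM in LEGSKO and 1228 ± 129.7 CPM in WT (log2 fold change -0.11 ± 0.10 SE, adjusted p = 0.668). Of 34 tested p53 targets and cell death genes, edgeR called 0, with 2 at an unadjusted p below 0.05 and 1 called by DESeq2 (median -0.04). Sesn1, a stress-responsive sestrin, averaged 148 ± 11.9 CPM in LEGSKO and 138 ± 15.6 CPM in WT (log2 fold change 0.10 ± 0.08 SE, adjusted p = 0.622).

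Growth lists likewise held no edgeR calls. Of 42 cell cycle genes 32 were below 0 (median log2 fold change -0.12), with 0 called by edgeR or DESeq2 and 5 at an unadjusted p below 0.05, and Ccnd1, a cyclin of the first gap phase, averaged 384 ± 30.2 CPM in LEGSKO and 386 ± 88.7 CPM in WT (log2 fold change -0.01 ± 0.14 SE, adjusted p = 0.982). Of 21 tested immediate early genes (median -0.20), edgeR called 0, with 10 at an unadjusted p below 0.05 and 4 called by DESeq2, and Fosl2, an AP-1 subunit, averaged 101 ± 18.7 CPM in LEGSKO and 129.7 ± 12.7 CPM in WT (log2 fold change -0.36 ± 0.13 SE, adjusted p = 0.198). Of 39 tested genes for FGF and growth factor signalling (median -0.06), edgeR called 0, with 6 at an unadjusted p below 0.05 and 4 called by DESeq2. Igfbp7, a secreted growth factor binding protein, averaged 6351 ± 571 CPM in LEGSKO and 6668 ± 363 CPM in WT (log2 fold change -0.07 ± 0.09 SE, adjusted p = 0.777). Of 27 tested amino acid transport genes (median -0.03), edgeR called 0, with 3 at an unadjusted p below 0.05 and 1 called by DESeq2, and Slc7a2, a cationic amino acid transporter, averaged 1391 ± 137 CPM in LEGSKO and 1736 ± 139 CPM in WT (log2 fold change -0.32 ± 0.09 SE, adjusted p = 0.0990). Tacr3 was the 1 called gene of 26 tested neuropeptide and G protein receptors (median -0.04). There DESeq2 called 1, and 5 were at an unadjusted p below 0.05.

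Markers of other neighbouring cells gave 1 call. Of 9 tested markers of pigmented epithelium and melanocytes, Trpm1, a cation channel of melanocytes and retinal bipolar cells, was called, at 138 ± 7.06 CPM in LEGSKO and 110.3 ± 7.13 CPM in WT (log2 fold change 0.32 ± 0.06 SE, adjusted p = 0.0279), and its call was lost without LEGSKO 2, 3 or 4 or WT 1, 2 or 4 (adjusted p up to 0.106). The summed level of that list was 300.1 to 359 CPM in LEGSKO and 265 to 322 CPM in WT (median log2 fold change -0.22), while Tyrp1, an enzyme of melanin synthesis, averaged 3.37 ± 0.837 CPM in LEGSKO and 4.49 ± 1.32 CPM in WT. Of 7 tested markers of non-pigmented ciliary epithelium (median -0.48), edgeR called 0, with 2 at an unadjusted p below 0.05 and 1 called by DESeq2. Red blood cell (4 tested, median -0.10), blood vessel (3 tested, median -0.01) and muscle markers (4 tested, median -0.15) had 0 called by edgeR or DESeq2 and 0 at an unadjusted p below 0.05.

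Transporters and enzymes outside the naming rule are given here after their values were seen. Both mouse genes of the multidrug exporter P-glycoprotein were higher, Abcb1a at 19.3 ± 3.43 CPM in LEGSKO and 11.9 ± 1.86 CPM in WT (log2 fold change 0.69 ± 0.14 SE, adjusted p = 0.0352) and Abcb1b at 64.1 ± 7.62 CPM in LEGSKO and 41.3 ± 6.096 CPM in WT (log2 fold change 0.64 ± 0.10 SE, adjusted p = 0.00918; SD, n = 4 each), and how reads shared by them were counted is not given in the sources used here. Carbonic anhydrases interconvert carbon dioxide and bicarbonate: Car2 had 159, 177, 213 and 181 CPM in LEGSKO against 139, 100.04, 106 and 109 CPM in WT (log2 fold change 0.69 ± 0.11 SE, adjusted p = 0.00764), and Car9 had 71.9, 58.4, 106 and 58.7 CPM in LEGSKO against 38.8, 37.6, 27.1 and 40.4 CPM in WT (log2 fold change 1.03 ± 0.22 SE, adjusted p = 0.0383). Neither had overlapping groups. Alad, which makes porphobilinogen in heme synthesis, had 922, 1003, 936 and 1011 CPM in LEGSKO against 656, 671, 712 and 724 CPM in WT (log2 fold change 0.49 ± 0.08 SE, adjusted p = 0.00944). Odc1, the entry enzyme of polyamine synthesis, averaged 241 ± 8.27 CPM in LEGSKO and 184 ± 9.004 CPM in WT (log2 fold change 0.39 ± 0.08 SE, adjusted p = 0.0331). Car2 and Abcb1b kept their calls without any 1 library. Alad lost its call without WT 2 (adjusted p up to 0.0506), Abcb1a without LEGSKO 2, 3 or 4 or WT 1, 2 or 3 (adjusted p up to 0.112), Odc1 without LEGSKO 2, 3 or 4 or WT 2, 3 or 4 (adjusted p up to 0.106), and Car9 without LEGSKO 1, 2, 3 or 4 or WT 2, 3 or 4 (adjusted p up to 0.109).

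Neuronal and adhesion genes outside the naming rule were also picked after their values were seen. Clstn3, a synaptic calsyntenin, had 46.4, 63.2, 67.7 and 55.5 CPM in LEGSKO against 32.8, 24.9, 24.4 and 26.2 CPM in WT (log2 fold change 1.10 ± 0.17 SE, adjusted p = 0.00809), and Pcdh19, a protocadherin, had 82.3, 94.99, 96.3 and 85.8 CPM in LEGSKO against 47.1, 47.1, 66.97 and 59.7 CPM in WT (log2 fold change 0.70 ± 0.10 SE, adjusted p = 0.00530). Both were higher. Asic2, a proton-gated sodium channel, was lower, with 17.7, 18.6, 17.95 and 20.6 CPM in LEGSKO against 27.1, 25.7, 28.4 and 29.05 CPM in WT (log2 fold change -0.56 ± 0.08 SE, adjusted p = 0.00530). Tyro3, a receptor tyrosine kinase of the TAM family, had 10.96, 13.03, 11.2 and 10.3 CPM in LEGSKO against 16.7, 18.7, 16.8 and 17.8 CPM in WT (log2 fold change -0.62 ± 0.09 SE, adjusted p = 0.00530), and Wsb1, a SOCS box protein of ubiquitin ligases, had 209, 252, 247 and 219.9 CPM in LEGSKO against 339, 359, 291 and 345 CPM in WT (log2 fold change -0.52 ± 0.08 SE, adjusted p = 0.00855), and these were lower too. The groups did not overlap in these 5 genes, which kept their calls without any 1 library. In all, 35 of the 127 called genes kept their calls in each of the 8 fits that left out 1 library.

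Some called genes lay beside each other. Within 200 kb of each other, 13 pairs of called genes were found, formed by 23 genes, and in all 13 pairs both genes differed in the same direction. Whether neighbours among all genes tested pair or agree in direction less often was not tested, so these counts have no background. Most called genes were higher (88 higher, 39 lower), so many pairs drawn from them would agree in direction. The pairs are also not independent, since some share a gene and 2 consist of overlapping genes. On chromosome 1, G0s2 (193272160 to 193273188), Lamb3 (193294353 to 193343878) and Camk1g (193346346 to 193370355) were all higher. Camk1g, a calmodulin-dependent kinase, averaged 1.54 ± 0.425 CPM in LEGSKO and 0.355 ± 0.0643 CPM in WT (log2 fold change 2.11 ± 0.46 SE, adjusted p = 0.0422), and its call was lost when any 1 of the 8 libraries was left out (adjusted p up to 0.132). Krt15 and Krt19, Mt1 and Mt2, Akr1b3 and Akr1b10, and Abcb1a and Abcb1b were pairs of related genes. Caprin2 and Dennd5b, 91.8 kb apart on chromosome 6, were the 1 pair that was lower. Cntf with Gm44505 and Zfp593 with E130218I03Rik overlap, and without a stated strand setting their reads cannot be told apart.

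The same genotype difference was measured in cortical fiber cells, in libraries that the epithelial comparison did not use. Whether fibers and epithelia came from the same animals is not given, so these libraries may not be independent of the epithelial ones. In fibers 220 of 13436 genes tested were called (1.64%), 147 higher (1.09%) and 73 lower (0.543%) in LEGSKO. WT fiber library 1 stood apart, with 50.1% of its counts in crystallins, where the LEGSKO fiber libraries had 29.6% to 34.3% and the other WT fiber libraries 27.6% to 29.6%. Of the 127 genes called in epithelia, 113 were tested in fibers, and 94 of these (83.2%) had the same sign there, against 60.3% of the 13148 genes tested in both tissues. Of the genes called higher in epithelia 58 of 75 had the same sign, and of those called lower 36 of 38. Both tissues called 13 genes, all in the same direction, which is 11.5% of the 113 and 5.91% of the 220. Without WT fiber library 1, 93 of 115 genes (80.9%) had the same sign, against 59.97% of all genes tested in both. Fibers then had 591 calls (4.34% of genes tested). In that fit 25 of the 115 genes were called in both tissues (21.7%).

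Mt1 was among the genes called in both tissues, with 25.7, 35.4, 25.5 and 29.7 CPM in LEGSKO fibers, against 1.17, 3.02, 1.24 and 2.004 CPM in WT fibers (log2 fold change 3.90 ± 0.21 SE, adjusted p = 9.00e-08). Mkx had 0.542, 0.516, 0.159 and 0.475 CPM in LEGSKO fibers, against 0.834, 2.299, 3.298 and 4.35 CPM in WT fibers (log2 fold change -2.68 ± 0.51 SE, adjusted p = 0.0161). The fiber groups did not overlap for either gene. Slc14a1 averaged 1.898 ± 0.861 CPM in LEGSKO fibers and 0.178 ± 0.0873 CPM in WT fibers (log2 fold change 3.32 ± 0.48 SE, adjusted p = 0.00233), and Car2 averaged 35.5 ± 3.65 CPM in LEGSKO fibers and 17.3 ± 1.78 CPM in WT fibers (log2 fold change 1.04 ± 0.11 SE, adjusted p = 0.000151; SD, n = 4 each). Clrn1, a membrane protein known from hair cells and photoreceptors, averaged 7.64 ± 1.51 CPM in LEGSKO fibers and 1.73 ± 0.796 CPM in WT fibers (log2 fold change 2.11 ± 0.26 SE, adjusted p = 0.000658). Abcg1, Kif26a, Pm20d1, As3mt and Csrp2 were the other genes higher in both tissues. Their epithelial calls were lost without LEGSKO 2 or 3 for Pm20d1 (adjusted p up to 0.0553), without LEGSKO 2, 3 or 4 or WT 2 for As3mt (adjusted p up to 0.0781), without LEGSKO 2, 3 or 4 or WT 2, 3 or 4 for Csrp2 (adjusted p up to 0.100) and, for Clrn1, without LEGSKO 3 or WT 2 (adjusted p up to 0.0693). Caprin2 averaged 135 ± 8.23 CPM in LEGSKO fibers and 203 ± 28.6 CPM in WT fibers (log2 fold change -0.59 ± 0.10 SE, adjusted p = 0.00610), and with Aplp1, Wsb1 and Mkx it was lower in both.

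Tacr3 differed between the tissues. It had 0.542, 0.215, 0.199 and 0.1296 CPM in LEGSKO fibers, against 0.111, 0.346, 0.4497 and 0.136 CPM in WT fibers (log2 fold change 0.03 ± 0.60 SE, adjusted p = 0.990), so the fiber groups interleaved near 0. The difference between tissues in the LEGSKO effect, tested as an interaction over all 24 libraries, was called (log2 difference 7.36 ± 0.78 SE, adjusted p = 2.02e-05). It was called for 16 of 15560 genes tested (0.103%), of which 4 were called in epithelia: Tacr3, Clrn1 with the larger fold change in fibers (log2 difference -1.45 ± 0.28 SE, adjusted p = 0.0362), and Golph3 (log2 difference 0.51 ± 0.10 SE, adjusted p = 0.0362) and Gm44505 (log2 difference 0.41 ± 0.08 SE, adjusted p = 0.0362), both higher in LEGSKO epithelia. The epithelial call of Golph3 was lost without LEGSKO 2, 3 or 4 or WT 2 or 4 (adjusted p up to 0.0879), and that of Gm44505 without LEGSKO 1, 2, 3 or 4 or WT 2, 3 or 4 (adjusted p up to 0.137). Mt2 averaged 0.0991 ± 0.09301 CPM in LEGSKO fibers and 0.594 ± 0.684 CPM in WT fibers, with opposite signs in the tissues and no call for the difference (log2 difference 4.56 ± 0.99 SE, adjusted p = 0.0788).

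**Figure D4:**
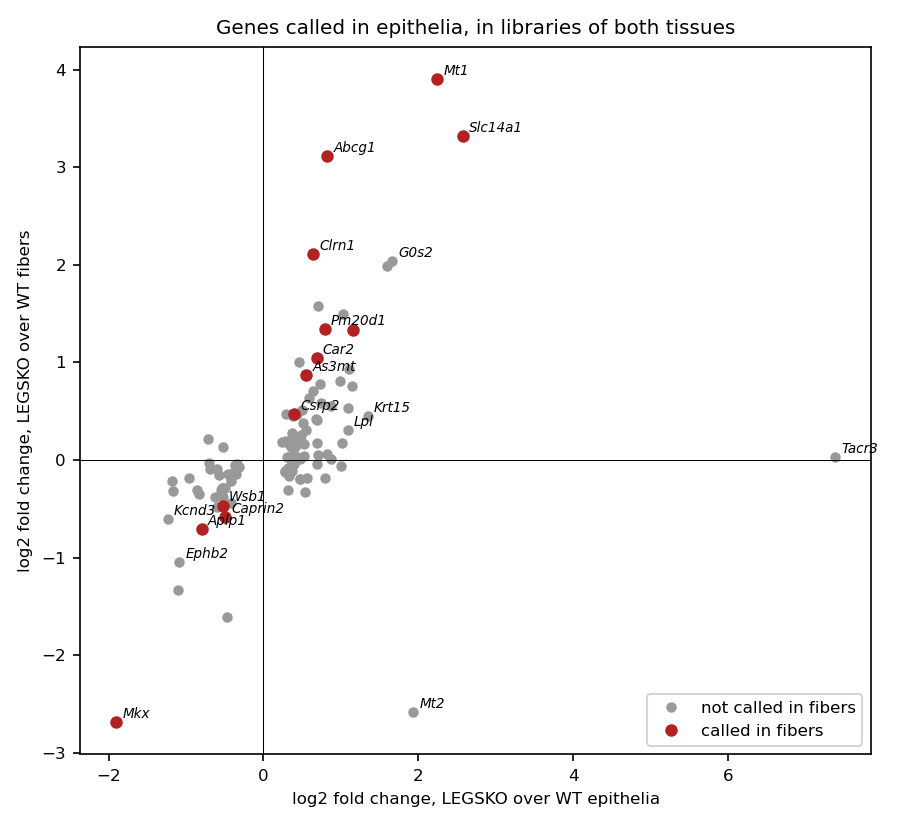
Log2 fold change of LEGSKO over WT in epithelia (horizontal axis) and in fibers (vertical axis) for the 113 genes called in epithelia and tested in fibers, with the 13 genes called in both tissues in red. Points in the upper right and lower left have the same sign in both tissues (94 genes), while Tacr3 lies at 7.38 in epithelia and 0.03 in fibers.

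LEGSKO+BSO epithelia were set against the same WT libraries, so their values are given beside those of LEGSKO only as levels. Tacr3 averaged 23.8 ± 4.47 CPM in LEGSKO, 19.3 ± 3.19 CPM in LEGSKO+BSO and 0.142 ± 0.119 CPM in WT (SD, n = 4 each, here and below). Mt1 averaged 8.09 ± 1.27 CPM in LEGSKO, 11.7 ± 3.83 CPM in LEGSKO+BSO and 1.72 ± 0.632 CPM in WT, and Mt2 averaged 5.34 ± 2.18 CPM in LEGSKO, 8.76 ± 4.94 CPM in LEGSKO+BSO and 1.404 ± 0.504 CPM in WT. In these genes the mean of both LEGSKO groups was above that of WT. Lpl averaged 225 ± 39.6 CPM in LEGSKO, 130.1 ± 20.9 CPM in LEGSKO+BSO and 106 ± 22.3 CPM in WT, and Tgfb1 averaged 38.4 ± 2.72 CPM in LEGSKO, 58.3 ± 2.25 CPM in LEGSKO+BSO and 56.1 ± 7.96 CPM in WT, so that the LEGSKO+BSO mean was near that of WT in both. Kcnd3 averaged 6.23 ± 0.371 CPM in LEGSKO, 5.02 ± 0.785 CPM in LEGSKO+BSO and 14.7 ± 4.38 CPM in WT, and Mkx averaged 1.68 ± 0.2903 CPM in LEGSKO, 2.64 ± 0.532 CPM in LEGSKO+BSO and 6.28 ± 2.72 CPM in WT. Gclc averaged 58.2 ± 10.6 CPM in LEGSKO, 85.6 ± 18.6 CPM in LEGSKO+BSO and 78.6 ± 12.9 CPM in WT, with the LEGSKO mean the lowest of the 3 groups.

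**Figure D5:**
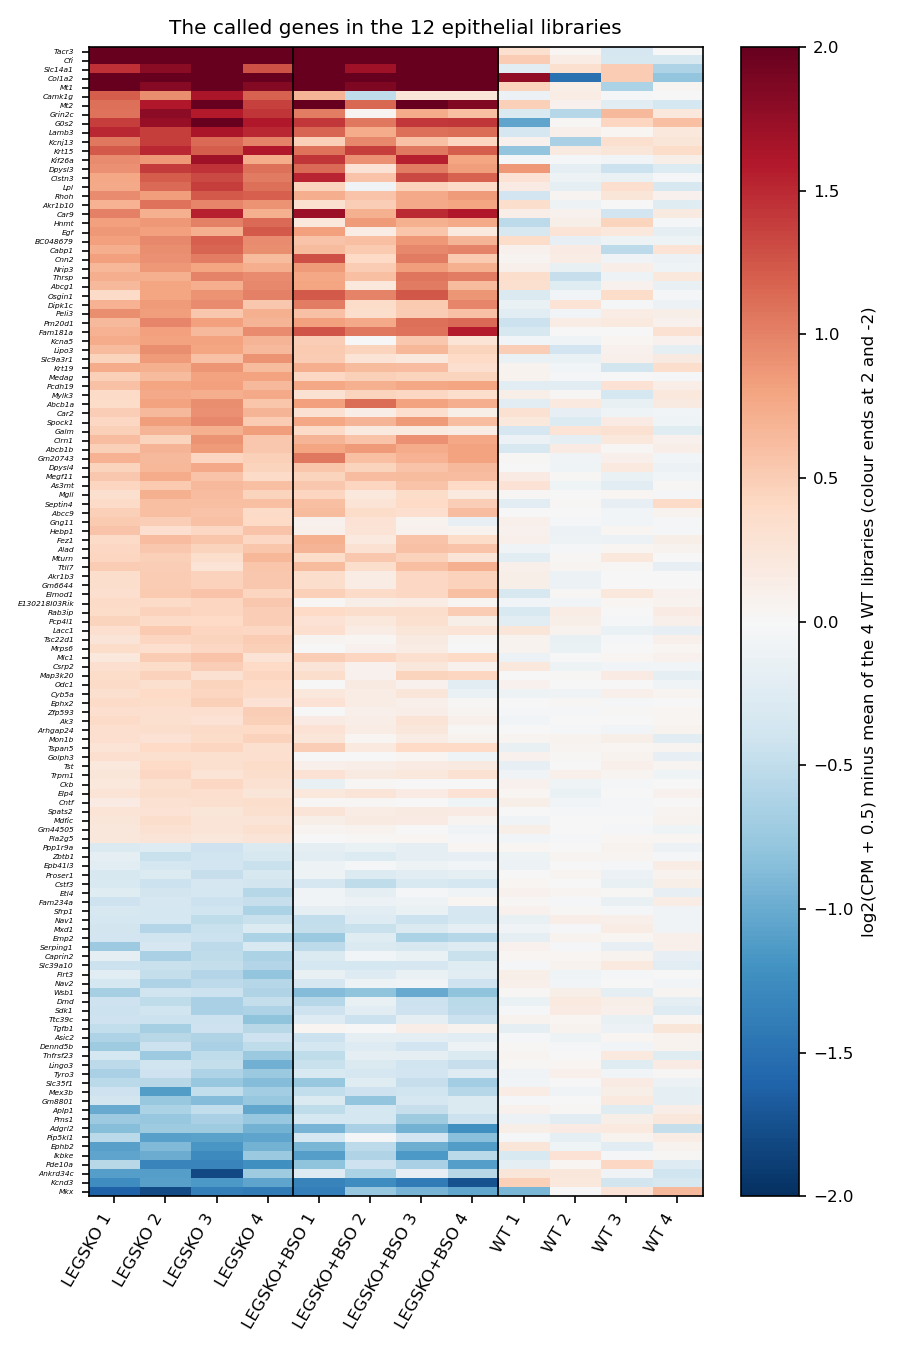
Each row is 1 of the 127 called genes and each column 1 of the 12 epithelial libraries, ordered LEGSKO, LEGSKO+BSO and WT. Colour shows log2(CPM + 0.5) minus the mean of the 4 WT libraries, ending at 2 and -2, and the 88 higher and 39 lower genes keep 1 colour across the 4 LEGSKO columns, which were used for the calls.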

How the data were processed

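Total RNA of mouse lens epithelia and cortical fiber cells was sequenced, per the labels. The authors deposited 1 table of raw counts, with 24415 Entrez gene identifiers as rows and 24 libraries as columns. Per the submitters' processing notes, bcl2fastq, CASAVA 1.8, TopHat and DESeq were used and the build was mm10 (GRCm38). Which counter, annotation and strand setting were used is not given in the sources used here. A RefSeq gene table (GRCm38.p6) gave symbols for 24334 identifiers, and the other 81, with 0.914% of counts, stayed in the tests. Libraries of the LEGSKO and WT epithelia groups were checked for duplicates and differed by more than sampling noise (chi-square of at least 7.98 per degree of freedom).

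Testing used edgeR 4.0.16 (R 4.3.3) on the counts as deposited: TMM scaling, filterByExpr (minimum count 10, minimum total 15), two-sided quasi-likelihood F test, Benjamini-Hochberg adjustment over all genes tested, threshold 0.05. The 12 epithelial libraries, in 3 groups, were fitted together, fibers likewise, and the difference between tissues over all 24 libraries. Epithelial libraries had a common biological coefficient of variation of 14.2%. "Called" means below the threshold, fold changes are fitted values, and levels are mean ± SD. The procedure was tested on simulated data.

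Named genes were Gclc, Gclm and Gss; the 12 highest and 12 lowest called fold changes with no overlap of groups and a mean log2 CPM of 1 or more, and a symbol that is no Gm number, clone or Rik name; the 10 smallest adjusted p-values with such a symbol; up to 6 called members per list; and the 2 members with the highest CPM of a list without calls. Marker genes beside them, and Mtf1, Slc30a1, Aldh3a1 and Col1a1, were added after values were seen. The comparison, its genes and the 42 lists were chosen with earlier results of these data known. Alternatives were RLE or totals-only scaling, scaling without crystallins, no filter, a minimum count of 30, DESeq2 1.42.0, a replicate block, the compared groups alone, and leaving out each library.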

Additional observations from a re-analysis of the deposited data

Results flagged for a closer look

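Levels of the named genes were examined in the LEGSKO and in the WT group, 160 groups of 4 libraries in all, for a library far from the other 3 (Dixon's ratio above its critical value). Chance alone gives about 1 in 20 groups, and 12 were found. In LEGSKO epithelia, Slc14a1 was 11 CPM in library 3, with 2.64 to 4.07 CPM in the others, and Kif26a was 28.2 CPM in library 3, with 14.3 to 16.7 CPM in the others. In library 1, Pip5kl1 was 13 CPM, with 8.72 to 8.92 CPM in the other LEGSKO libraries, and Pde10a was 6.35 CPM, with 3.51 to 3.80 CPM in the others. Slc7a2 was 1190 CPM in LEGSKO library 4, with 1439 to 1478 CPM in the others.

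In WT epithelia library 1, Dpysl3 was 59.2 CPM (23.7 to 28.4 CPM in the other WT libraries), Gpx4 was 317 CPM (268 to 273 CPM) and Pdgfrb, a receptor of vessel mural cells, was 240 CPM (339 to 347 CPM). In WT library 4, Gclm was 37.7 CPM (46.0 to 47.1 CPM in the others), Crybb2 was 18000 CPM (21685 to 22129 CPM), Adgrl2 was 11.9 CPM (18.3 to 19.2 CPM) and Kif26a was 9.12 CPM (8.07 to 8.23 CPM).

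The effect of LEGSKO on Tacr3 differed between tissues by the interaction test, with a log2 difference of 7.36 between epithelia and fibers (edgeR, adjusted p = 2.02e-05).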

How the results depend on the processing

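The number of calls in LEGSKO against WT epithelia was 127 (88 higher, 39 lower). It stayed within 1.5 times under RLE or totals-only scaling, scaling without crystallins, no filter, a minimum count of 30 and the compared groups alone. Those settings gave 124, 124, 133, 157, 135 and 87 calls. Of the 127 genes themselves, they called 123, 113, 126, 121, 124 and 76 again, and the replicate block 93. Named genes not called with the compared groups alone were Col1a2, Kcnj13, Dpysl3, Akr1b10, Osgin1, Trpm1, Serping1, Caprin2, Mex3b and Pms1. DESeq2 gave 460 (261 higher, 199 lower). Leaving out 1 library gave 40 to 183 calls, 26 to 118 higher and 14 to 65 lower. The log2 fold change of Gclc stayed between -0.54 and -0.33 without 1 library.

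In LEGSKO against WT fibers, the 220 calls became 75 with library totals alone, 514 with DESeq2, 143 with the replicate block, 85 with the compared groups alone and 61 to 591 without 1 library. The 16 calls for the difference between tissues became 4 with library totals alone, 83 with DESeq2, 10 with the replicate block and 4 to 46 without 1 library. The cause was not tested.

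The replicate numbers were checked for pairing: deviations of same-numbered LEGSKO and WT epithelia correlated between -0.28 and 0.12. Differently numbered ones correlated between -0.25 and 0.32. The check thus showed no pairing by number, but 4 same-numbered pairs cannot exclude it. Deviations of same-numbered epithelia and fibers correlated between 0.08 and 0.31 in WT and between -0.11 and 0.04 in LEGSKO. In WT the 0.31 belonged to number 1, whose fiber library stood apart in its crystallin share. The other WT numbers gave 0.08 to 0.10, and differently numbered WT libraries reached 0.12. Whether the numbers pair the tissues cannot be told from these values. With the number as a block, epithelia had 110 calls, 65 of them higher, and Gclc was called, at a log2 fold change of -0.44 (edgeR, adjusted p = 0.0111), against 0.0988 to 0.472 under the other settings. With 4 libraries a group, the median standard error of a log2 fold change was 0.11 and the median absolute log2 fold change 0.12, which limits calls of small differences.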
